A study of Zea mays with 4 samples.

Results

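The maize genes fea2, ub2 and ids1 are known for shaping the ear and the tassel, and they were measured here in young stem internodes. All probe sets of the 3 genes were taken by gene name, through the platform annotation and the RefSeq names of the same gene identifiers. Each gene (NCBI gene 542675 for fea2, 541996 for ub2 and 541684 for ids1) matched 1 probe set, so they make up 3 of 1108 genes that the annotation places on the Affymetrix maize array, which has 17734 probe sets. The genes were picked with their values on these arrays known, the level in the internode and the contrast of CCR mutant against WS included. Their levels and differences are therefore given as a description, with no test.

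The tissue was young stacked internodes of maize, collected when plants had 6 to 7 leaves and after growth under days of 16 h at 25 °C and nights of 8 h at 22 °C. The CCR mutant samples came from plants with lowered cinnamoyl-CoA reductase (CCR), which makes precursors of lignin, and were single extracts of 144 and 182 µg RNA for which the labels record no treatment. How the enzyme was downregulated is not given in the labels. The WS samples, whose name is not explained, were extracts of 185 and 215 µg RNA, each mixed with 3 further extracts of 1 µg. For WS the labels also record an early drought treatment that lasted 36 h, with REW (not spelled out) between 20 and 30%. Genotype, pooling and the recorded treatment coincide and cannot be told apart as the source of a difference. Each group had 2 samples with 1 array each. The labels do not name separate plants behind the samples of a group, so the spread between them may be technical, and the precision is limited by the small number of arrays.

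In grasses the apical meristem makes leaves and stem during vegetative growth and is later converted into an inflorescence meristem, which then lays down branch, spikelet and floral meristems. The size of a meristem is held in check by CLAVATA-type signalling, in which small secreted peptides are sensed by receptors with leucine-rich repeats, and SBP-box and AP2-type transcription factors act later, on branching and on how long a spikelet meristem stays active. FEA2 (fasciated ear2) is a leucine-rich repeat receptor-like protein related to CLAVATA2 of Arabidopsis, and loss of it enlarges the ear meristem. UB2 (unbranched2) is an SBP-box transcription factor that acts with its close relatives UB3 and TSH4 on branching of shoot and tassel, and genes of this kind are targets of the microRNA miR156. IDS1 (indeterminate spikelet1) is an AP2-type transcription factor that ends the activity of the spikelet meristem, and its transcript is a target of miR172.

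All 3 genes gave a signal above background in the internode on all 4 arrays. Background was gauged by 66 probe sets whose names mark them as reporters. What each of them targets was not checked. Of these, 65 stayed at or below a log2 value of 3.43 on every array, and the other one was bright on all of them, at 13.51 or more. The lowest array of fea2 lay 3.41 above that reporter level on the log2 scale, the lowest of ub2 3.20 above it and the lowest of ids1 1.04 above it. The signal of ids1 was thus the nearest to background. The brightness of a probe set also depends on its probes, so these levels do not rank the transcripts of the 3 genes against each other.

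For fea2, the meristem size receptor, the log2 value was 7.22 and 6.84 in the CCR mutant, against 7.25 and 7.11 in WS. One CCR mutant array was the lowest of the 4 and the other lay between the WS arrays, so the groups overlapped. The means were 7.03 ± 0.27 in the CCR mutant and 7.18 ± 0.10 in WS (SD, n = 2 each). The difference of -0.15 was smaller than the gap of 0.38 between the CCR mutant arrays and about as large as the gap of 0.14 between the WS arrays. Without CCR mutant replicate 2 it was 0.04, without CCR mutant replicate 1 it was -0.34, and without WS replicate 1 it was -0.08, so its sign rested on 1 array. From the lowest to the highest array the signal of fea2 spanned 1.33-fold.

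For ub2, the SBP-box factor, the log2 value was 6.63 and 6.71 in the CCR mutant, against 6.99 and 7.06 in WS. Both CCR mutant arrays lay below both WS arrays, which made ub2 the 1 gene of the 3 whose groups did not overlap. Over all 11085 tested probe sets 23.5% had CCR mutant arrays that lay below both WS arrays in the same way. The means were 6.67 ± 0.06 in the CCR mutant and 7.03 ± 0.05 in WS (SD, n = 2 each), a difference of -0.36 on the log2 scale, which puts the CCR mutant signal at 78.2% of the WS signal. The arrays of a group were 0.08 apart in the CCR mutant and 0.07 apart in WS, while the 4 differences between single arrays of the groups were between -0.43 and -0.28. With any 1 array left out the difference of ub2 was between -0.40 and -0.32. In such bulk tissue, fewer cells that express a gene and less of its RNA per cell cannot be told apart.

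For ids1, the spikelet factor, the log2 value was 4.47 and 4.77 in the CCR mutant, against 5.09 and 4.76 in WS. The groups overlapped by a narrow margin, since the higher CCR mutant array lay 0.01 above the lower WS array. The remaining arrays stood apart, with CCR mutant replicate 1 the lowest and WS replicate 1 the highest, 0.62 from each other on the log2 scale. The means were 4.62 ± 0.21 in the CCR mutant and 4.93 ± 0.23 in WS (SD, n = 2 each). The difference of -0.31 was about the size of the gaps within the groups, 0.30 between the CCR mutant arrays and 0.33 between the WS arrays. It was -0.14 without WS replicate 1, -0.16 without CCR mutant replicate 1, -0.46 without CCR mutant replicate 2 and -0.47 without WS replicate 2.

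**Figure D1:**
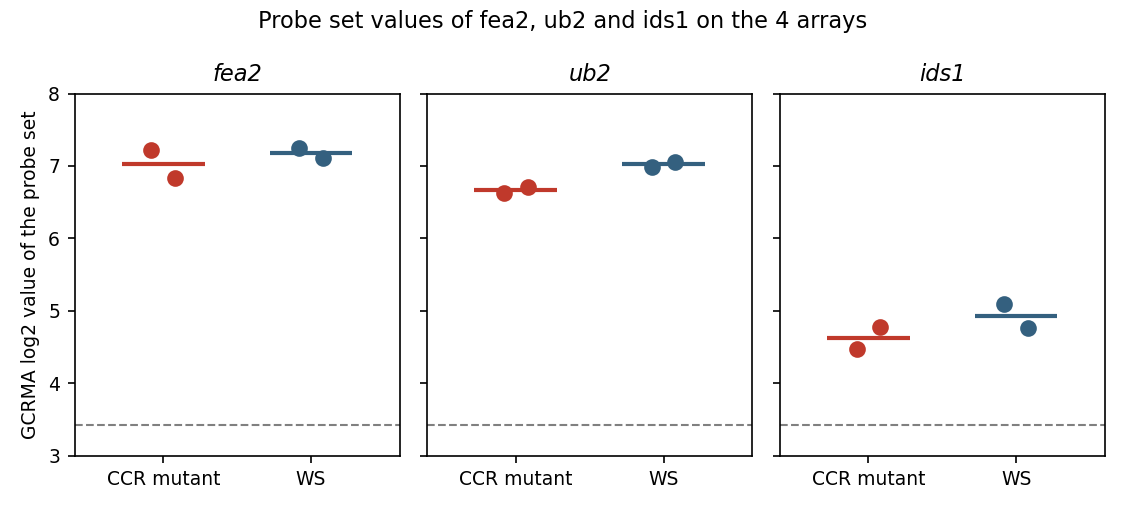
GCRMA log2 value of the probe sets of fea2, ub2 and ids1 (vertical axis) on the CCR mutant and WS arrays; points are arrays, bars are group means of 2 arrays, and the dashed line is the level that 65 of 66 reporter probe sets did not exceed (3.43). The points of the groups overlap for fea2 and ids1, and for ub2 the CCR mutant points (6.63 and 6.71) lie below the WS points (6.99 and 7.06).

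All 3 differences lay between the 5th and the 95th percentile of those of all tested probe sets. The tested probe sets, those with a log2 value of at least 4 on at least 2 arrays, had a median difference of -0.05 and a median absolute difference of 0.11, with a 5th percentile of -0.38 and a 95th percentile of 0.34. An absolute difference at least as large as that of ub2 was found in 10.5% of them, as large as that of ids1 in 13.7% and as large as that of fea2 in 35.9%. The genes also differed in how closely the arrays of a group matched. The SD between replicates, pooled over the groups, was 0.05 for ub2, 0.20 for fea2 and 0.22 for ids1, beside a median of 0.12 over the tested probe sets. With the arrays centred on their medians the differences were -0.32 for ub2, -0.27 for ids1 and -0.11 for fea2.

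**Figure D2:**
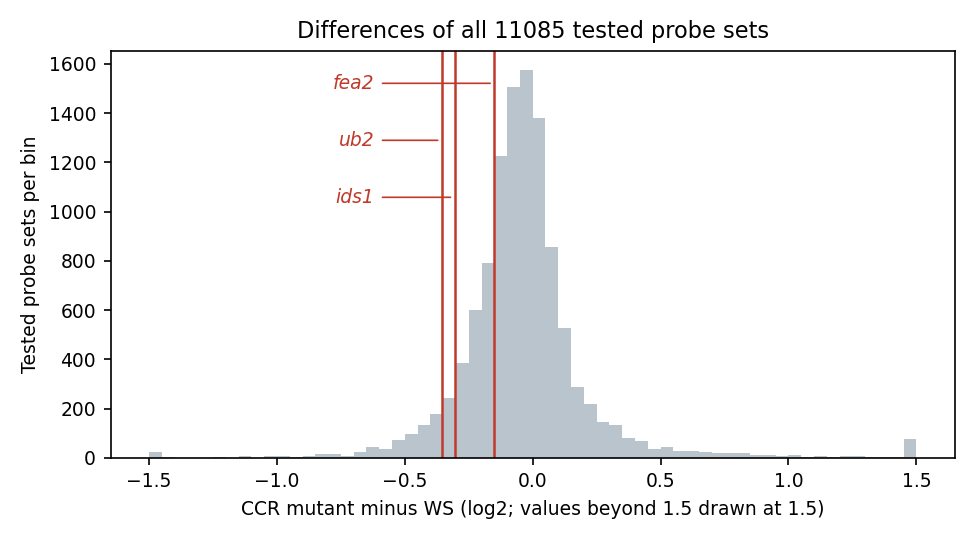
Number of tested probe sets (vertical axis) by difference of CCR mutant minus WS on the log2 scale (horizontal axis, bins of 0.05, with values beyond 1.5 drawn at 1.5). The lines mark ub2 (-0.36), ids1 (-0.31) and fea2 (-0.15), all to the left of 0 and to the right of the 5th percentile at -0.38.

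The relatives and partners of these genes were taken from 5 lists of known genes, with the 3 genes themselves left out. Of 98 names on the lists, 30 further genes were measured here, and 24 of them were not above the level needed for a test. Of these, 20 stayed at or below the reporter level of 3.43 on every array. The 6 that were tested are the homeobox genes kn1 and lg3 and the MADS-box genes m15, m4, zap1 and zmm31. None of the 6 passed with limma (Benjamini-Hochberg adjusted p under 0.05, which 0.153% of all tested probe sets did, 0.0812% with higher and 0.0722% with lower values in the CCR mutant), and 1, zmm31, had an unadjusted p under 0.05, as did 6.43% of all tested probe sets.

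Beside fea2 in the list of meristem size genes stood kn1, the homeobox gene that keeps meristem cells undifferentiated, and its relative lg3. The log2 value of kn1 was 8.49 and 8.35 in the CCR mutant, against 9.04 and 8.38 in WS, and that of lg3 was 5.29 and 5.55 in the CCR mutant, against 6.28 and 5.32 in WS. In both genes WS replicate 1 stood above the other 3 arrays, and the groups overlapped. The differences were -0.29 (SE 0.26) for kn1 and -0.38 (SE 0.37) for lg3, and without WS replicate 1 they were 0.04 and 0.10. The list's median difference, over these 2 genes, was -0.34, against -0.05 over all tested probe sets, and 0.07 without WS replicate 1 and -0.74 without WS replicate 2. With no filter on low values, which adds the measured genes at background, it was -0.13. The response regulator gene abph1, which acts on leaf arrangement, and the CLE peptide gene esr1, known from the endosperm, were at background, at 2.27 or below on every array.

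Among SBP-box genes ub2 was the 1 of 6 measured that reached the level needed for a test. Its relatives sbp2, sbp3, sbp4, sbp6 and lg1, the last of which places the boundary between leaf blade and sheath, had values of 3.59 or less on all arrays. The highest of them, sbp6, was at 3.44 and 3.24 in the CCR mutant, against 3.42 and 3.59 in WS, above the reporter level on 1 array of each group. The closest relatives of ub2, ub3 and tsh4, were not analysed here, and whether their transcripts also bind the ub2 probes was not tested.

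Among AP2-type genes ids1 was likewise the 1 of 3 measured that was tested. The juvenile leaf factor gl15 and the spikelet factor bd1 were between 1.91 and 1.97 on all arrays. The sister gene of ids1, sid1, was not analysed here. Of the genes for branching, axillary meristems and the tassel none of 5 measured was tested. Those were the branching repressor tb1, the axillary meristem factor ba1, the tassel sex determination gene ts2 and the leaf margin genes ns1 and ns2, all at 2.39 or below.

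The list for floral transition and inflorescence meristem identity had 4 tested genes, all MADS-box genes, and all 4 had higher means in the CCR mutant. Markers of floral organs also had higher means in the CCR mutant, 5 of 5 tested, with a median difference of 2.99. Of these, zmm6 and zmm27 reached a value of 4 on the CCR mutant arrays alone, so they were tested through that group only. The part of the floral organ markers in the values of this list was not tested. The gene zmm31, with 5.16 and 5.43 in the CCR mutant against 4.43 and 4.29 in WS, differed by 0.94 (SE 0.13, limma adjusted p = 0.397) and did not overlap between the groups. The APETALA1-type genes m15, m4 and zap1 differed by 0.35 (SE 0.17), 0.40 (SE 0.21) and 0.49 (SE 0.31). In these 3 genes both CCR mutant arrays also lay above both WS arrays, by a narrow margin from WS replicate 1, and WS replicate 2 was the lowest. Over the array as a whole, 13.0% of the tested probe sets had CCR mutant arrays above both WS arrays. The list's median difference was 0.44, against -0.05 over all tested probe sets, and 0.14 without WS replicate 2 and 0.78 without WS replicate 1. The LEAFY-type gene zfl1 and the flowering time gene id1 were at 2.89 or below on all arrays. The genes zmm2, zmm8 and bde1, also of the MADS-box family, were above a value of 4 on CCR mutant replicate 1 alone, at 4.91, 4.19 and 4.38.

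Probe sets at background carried a small offset of their own. All 65 reporter probe sets at background had higher means in the CCR mutant, with a median difference of 0.04. Of the 24 list genes that were not tested, 21 had higher means in the CCR mutant, with a median difference over the 24 of 0.04. No direction is drawn from them.

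**Figure D3:**
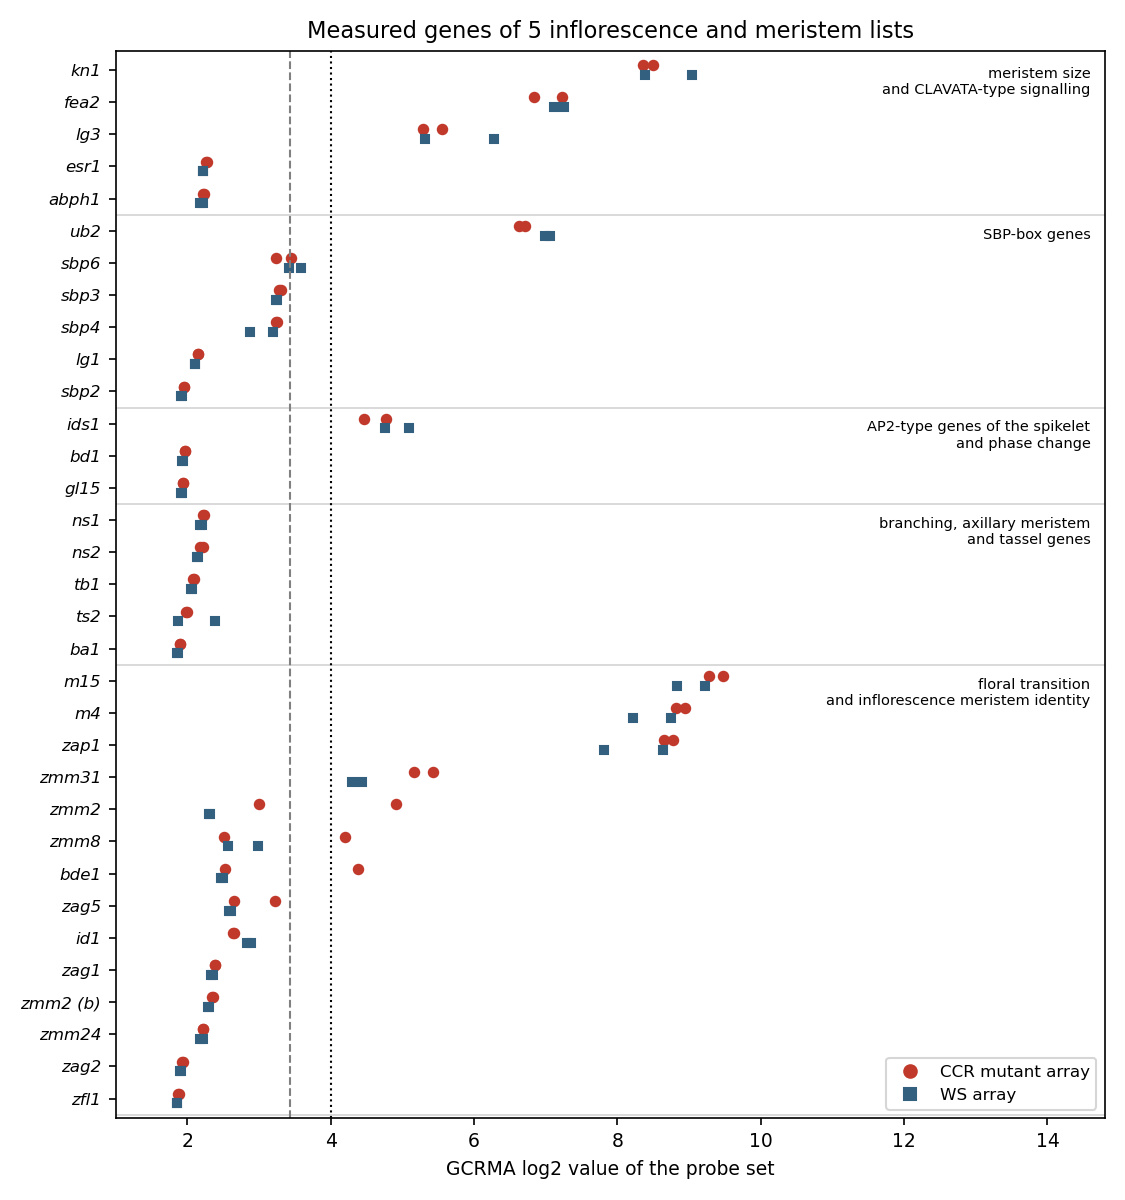
GCRMA log2 value (horizontal axis) of each measured gene of the 5 lists (rows), with CCR mutant arrays as circles above WS arrays as squares; the dashed line is the reporter level (3.43), the dotted line is the value of 4 needed for a test on 2 arrays, and the second gene annotated as zmm2 is marked (b). The genes fea2, ub2, ids1, kn1, lg3, m15, m4, zap1 and zmm31 lie to the right of the dotted line on all arrays, and 20 of the other 24 lie to the left of the dashed line.

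The labelled tissue was checked against markers. On all 4 arrays secondary wall and xylem genes (6 of 6 measured tested), photosynthetic leaf genes (7 of 7) and genes of meristem and dividing cells (12 of 13) were above background, while genes of pollen and tapetum (0 of 5) and root (0 of 2) were not, and of the kernel genes 2 of 8 were, the starch synthesis gene bt2 and the zein gene zp27. The profilin gene pro3, the brightest of the pollen list, was at 2.55 or below, and the aquaporin gene tip2-3, the brightest of the root list, at 1.99 or below. The brightest genes of the first 3 lists were the cinnamyl alcohol dehydrogenase gene bm1 of lignin synthesis, the Rubisco gene ssu1 and the replication gene pcna2. Of floral organ genes 5 of 11 were tested, with array medians of 7.62 and 7.38 in the CCR mutant and 4.78 and 3.99 in WS. These 5 include the B-class gene si1, at 8.32 and 7.72 in the CCR mutant and 5.28 and 4.64 in WS. They also include zmm6 and zmm27, which reached a value of 4 on the CCR mutant arrays alone. The gene cncr1, for cinnamoyl-CoA reductase, had values of 8.59 and 9.14 in the CCR mutant and 10.99 and 10.13 in WS. Both CCR mutant arrays thus lay below both WS arrays, as in 23.5% of all tested probe sets. The difference of cncr1 was -1.70 (SE 0.38), beyond the 5th percentile of -0.38 over all tested probe sets. Its unadjusted limma p was 0.013, and 6.43% of all tested probe sets had one under 0.05. Its limma adjusted p was 0.68, so it did not pass. Across all tested probe sets the arrays of different groups correlated with Pearson's r of 0.965 to 0.978, the CCR mutant arrays with 0.986 and the WS arrays with 0.981, where probe sets are not independent replicates.

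Marker levels also differed from array to array, most of all those of the floral organ genes given above, which are not drawn in the plot of marker medians. The median of the 12 tested genes of meristem and dividing cells was 6.93 and 6.89 in the CCR mutant, against 7.10 and 7.33 in WS. Both CCR mutant arrays lay below both WS arrays, as for ub2. Among tested probe sets taken singly, which is an unlike measure to a median of several genes, 23.5% did so. All 12 genes had lower means in the CCR mutant, with a median difference of -0.34, against -0.05 over all tested probe sets. The highest array of the list's array median was WS replicate 2, as for ub2. Its lowest was CCR mutant replicate 2, while that of ub2 was CCR mutant replicate 1. The median of 5 secondary wall genes, the reductase gene cncr1 left out, was 10.10 and 10.42 in the CCR mutant, against 10.59 and 10.25 in WS. Its lowest array was CCR mutant replicate 1 and its highest WS replicate 1, as for ids1. The median of the 7 leaf genes was 11.49 and 11.67 in the CCR mutant, against 11.90 and 11.12 in WS, with the WS arrays farthest apart. The part of tissue makeup in the values of fea2, ub2 and ids1 was not tested.

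**Figure D4:**
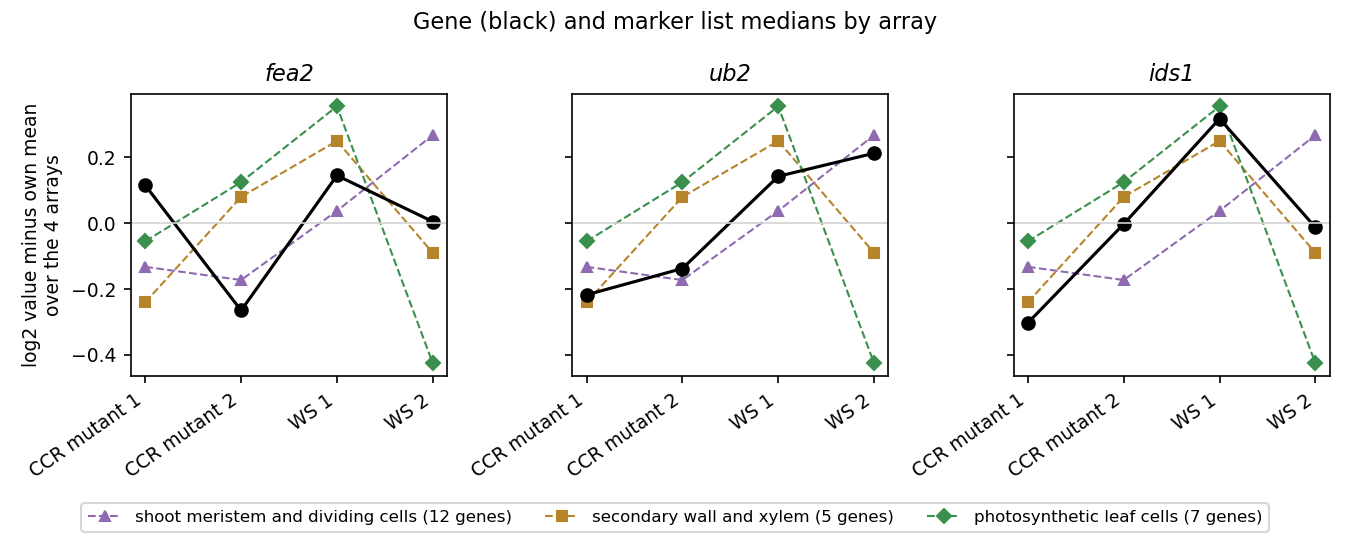
Log2 value on each array minus its own mean over the 4 arrays (vertical axis), for fea2, ub2 and ids1 (black circles, 1 panel each) and for the median of the tested genes of 3 marker lists (coloured, the same in each panel); lines only guide the eye, since arrays have no order. The values of ub2 are below 0 on both CCR mutant arrays and above 0 on both WS arrays, as are those of the dividing cell median, and ids1 is farthest below 0 on CCR mutant replicate 1 and farthest above it on WS replicate 1, as is the secondary wall median.

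The genes with the pattern most like each of the 3 were found among 911 other tested probe sets with a gene or locus name, by the root mean square difference between log2 values centred on their own mean over the 4 arrays. Such likeness rests on 4 values per gene and says nothing of shared function or control. For fea2 the nearest were gss1 (0.03), the histone deacetylase gene HDA108 (0.04) and bsd2 (0.05), the last known for a chaperone of Rubisco assembly, beside a median of 0.20 over the 911. All 3 were lowest on CCR mutant replicate 2, as fea2 was. For ub2 the nearest were the glutamine synthetase gene Gln1-4 (0.03), meg6 (0.04) and IDP1950 (0.04), beside a median of 0.20. For ids1 they were cl51309_1 (0.02), the COBRA-like secondary wall gene bk2 (0.03) and gpm645 (0.07), beside a median of 0.23. The log2 value of bk2 was 9.68 and 10.02 in the CCR mutant, against 10.25 and 9.98 in WS, with its lowest and highest arrays the same as those of ids1. The gene bk2 is also among the secondary wall genes whose median was set beside ids1 above, so these likenesses are not independent.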

How the data were processed

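RNA of 4 maize internode samples, 2 CCR mutant and 2 WS, was hybridised to 1 Affymetrix array each, with 20 µg of amplified RNA (per the labels' protocols). The deposited table holds GCRMA output, per the submitters' processing notes, in which background is corrected, arrays are normalized by quantiles and each probe set gets 1 value. These deposited values are read as log2 from their range, since the table does not state the base, and were used as they are. The 179 probe sets for controls and reporter genes were excluded from the fit. Probe sets with a log2 value of at least 4 on at least 2 arrays (11085) were fitted with limma 3.58.1 in R 4.3.3 (lmFit, eBayes; CCR mutant minus WS, two-sided, Benjamini-Hochberg over all of them, threshold 0.05), which was tested on simulated data. Genes were named from the 2007 platform annotation, updated through RefSeq names of the maize B73 assembly: 1452 probe sets have 1 gene, 1 has several and 16281 are unnamed here. Coordinates are not printed, as the sources used here name no build for the array.

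The 3 genes and all lists were chosen with earlier results of these data known. Names on the lists that matched other genes with the same synonym (ct2, ant1, gt1 and pdk1) were left out by hand after the annotation and the values had been read. A gene with several probe sets was given by the brightest. The rule for named genes took the 3 genes, all measured genes of a list with up to 4, otherwise the 4 tested genes with the smallest p, the brightest gene of each marker list and the 3 most alike patterns per gene; other genes, such as sbp6, abph1, esr1, zfl1, id1, zmm2, zmm8, bde1, zp27 and those at background, were named after their values were seen. The alternatives were other filters, a floor at 4, repeated quantile normalization, median-centred arrays, a variance trend, robust variances, a replicate block, probe sets averaged per gene and leaving out each array.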

Additional observations from a re-analysis of the deposited data

How the results depend on the processing

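The differences of fea2, ub2 and ids1 moved by less than the SD between replicates under repeated quantile normalization and with median-centred arrays. The floor at 4 could not move them, since all 3 genes were above 4 on all arrays. With 2 arrays per group, leaving 1 out cannot move a difference by more than that SD, so only the ranges are given. With 1 array left out the difference of fea2 ranged from -0.34 to 0.04, that of ids1 from -0.47 to -0.14 and that of ub2 from -0.40 to -0.32. With 1 array left out the median of the meristem size list ranged from -0.74 to 0.07 and that of the floral transition list from 0.14 to 0.78. With no filter these medians were -0.13 and 0.35. The differences of kn1 and lg3 changed sign without WS replicate 1, and ranged from -0.62 to 0.04 and from -0.86 to 0.10 with 1 array left out. No median is given for the SBP-box, AP2-type and branching lists, in which no gene other than ub2 and ids1 was tested. Over the whole array 17 probe sets passed, and 9 with no filter, 0 with any 1 array left out (range 0 to 0) and 0 with the replicate block. The labels do not say that the replicate numbers pair the samples. The deviations of same-numbered arrays from their group means correlated with r = 0.35 across tested probe sets. With 2 arrays per group the spread of a single gene is poorly known, and a difference such as that of ub2 has no check outside these 4 arrays.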
